A study of Mus musculus with 194 samples.

Results

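The gene-dense windows were the 50 kb windows of mouse chromosomes 1 to 19 (GRCm38) that overlapped the bodies of at least 5 protein-coding genes. There were 382 of them among 48083 windows, or 0.794%. The rule reads the RefSeq gene table of GRCm38.p6 alone and no insertion count, but it was set with earlier results of these data known. The gene-dense windows overlapped 2072 of the 20560 protein-coding genes of these chromosomes, or 10.1%. Of the 382 windows, 221 overlapped 5 genes, 94 overlapped 6, 31 overlapped 7 and 36 overlapped 8 or more. Chromosome 7 held 64, chromosome 11 held 47, chromosome 17 held 35, and chromosome 12 held only 1. In 89 cases the next window was also gene-dense, and such neighbours can share a gene. In 321 windows no gene family made up 50% or more of the genes, and these are called mixed here. The others were dominated by protocadherin genes (13 windows), chemoreceptor genes (9), histone genes (8), keratin genes (4), Hox genes (3), zinc finger genes named Zfp (1) or another family (23). Protocadherin gene bodies overlap one another, so their windows count the same genes several times, and the window with the most genes, 25, was one of these.

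Gene-dense stretches of mammalian chromosomes are rich in housekeeping genes, whose promoters often lie in CpG islands and are active in most cell types. SP1 is a zinc finger transcription factor that binds GC boxes, which are common in such promoters. In calling cards a transposase places a transposon into a nearby TTAA, so that a transposase fused to a transcription factor records that factor's sites and an unfused transposase records its own preference for accessible chromatin.

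The study recorded transposon insertions in the brain of mice that received AAV on postnatal day 0 to 1. In SRT libraries, named for self-reporting transposons, the junction of transposon and genome was read from RNA, for cortex cut into 10 pieces. In the BrokenHeart libraries it was read from cortical DNA by inverse PCR, with 20 barcoded transposons. The 194 listed samples were combined by the submitters into 47 tables: 46 replicates in 11 groups, and 1 table that pools 3 experiments in N2a, a mouse neuroblastoma cell line. C57bl6J mice (n = 2) received viruses that need no Cre. Syn1Cre (n = 6) and GFAPCre (n = 6) are Cre driver lines commonly used for neurons and for astrocytes, and Syn1CreNeg and GFAPCreNeg (n = 6 each) are the groups labelled Cre-negative. Frontflip_GFAPCre and Frontflip_GFAPCreNeg (n = 3 each) carry a construct name that the labels do not explain. Rbp4Cre_TRAP (n = 4) is named for a Cre driver line of deep cortical layers and for a purification of ribosome-bound RNA, and BrokenHeart has n = 3. Syn1Cre_SP1_P28 (n = 4) and Syn1Cre_SP1_P10 (n = 3) are read here as Syn1Cre mice given an SP1-fused transposase, with tissue from postnatal day 28 or 10. No label describes these constructs or or gives a collection age for the other groups, so a difference between an SP1 group and unfused Syn1Cre can include age. The labels do not say that replicates of a group were separate animals or litters, so p-values measure the spread between these tables. N2a is 1 line in culture, and its table has no replicate.

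The promoters below belong to genes in 3 of the windows with the largest rise in SP1 libraries at postnatal day 28. Among the genes of a window with a known start, they are those with the highest mean level within 1 kb of the start in these libraries. Each is the RefSeq (GRCm38.p6) sequence from 250 bases before to 50 bases after the gene's start, on the strand of the gene, 5′ to 3′. Capitals mark TTAA, the insertion target, and GC boxes, searched as GGGCGG on both strands. These motifs share no letters and cannot overlap each other. The Plscr3 promoter lies at chr11:69846122-69846421 (+), Fgf11 at chr11:69802231-69802530 (-), Fzr1 at chr10:81378321-81378620 (-), Dohh at chr10:81384184-81384483 (+), Psmd8 at chr7:29180624-29180923 (-) and Ggn at chr7:29169960-29170259 (+).
Plscr3: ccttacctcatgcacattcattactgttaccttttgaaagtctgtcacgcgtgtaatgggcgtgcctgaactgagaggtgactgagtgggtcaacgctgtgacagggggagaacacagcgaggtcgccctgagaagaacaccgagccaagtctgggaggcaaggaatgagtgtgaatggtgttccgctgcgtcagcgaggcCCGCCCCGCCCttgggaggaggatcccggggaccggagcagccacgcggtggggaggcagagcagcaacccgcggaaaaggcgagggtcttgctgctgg
Fgf11: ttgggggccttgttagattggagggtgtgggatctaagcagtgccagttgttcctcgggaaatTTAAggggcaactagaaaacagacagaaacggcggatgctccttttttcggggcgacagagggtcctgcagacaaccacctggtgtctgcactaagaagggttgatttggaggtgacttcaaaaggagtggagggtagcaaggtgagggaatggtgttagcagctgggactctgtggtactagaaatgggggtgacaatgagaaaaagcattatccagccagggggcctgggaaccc
Fzr1: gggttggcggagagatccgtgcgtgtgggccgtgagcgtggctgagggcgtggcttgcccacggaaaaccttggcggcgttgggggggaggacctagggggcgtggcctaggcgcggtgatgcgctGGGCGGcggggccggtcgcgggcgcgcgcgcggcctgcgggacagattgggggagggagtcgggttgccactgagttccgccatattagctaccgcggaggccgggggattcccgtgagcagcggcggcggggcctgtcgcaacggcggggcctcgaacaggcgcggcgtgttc
Dohh: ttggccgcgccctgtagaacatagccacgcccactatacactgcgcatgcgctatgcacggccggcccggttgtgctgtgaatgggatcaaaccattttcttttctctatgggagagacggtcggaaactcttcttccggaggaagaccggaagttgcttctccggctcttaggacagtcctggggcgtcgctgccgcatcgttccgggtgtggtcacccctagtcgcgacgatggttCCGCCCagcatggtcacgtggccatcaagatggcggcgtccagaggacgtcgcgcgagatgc
Psmd8: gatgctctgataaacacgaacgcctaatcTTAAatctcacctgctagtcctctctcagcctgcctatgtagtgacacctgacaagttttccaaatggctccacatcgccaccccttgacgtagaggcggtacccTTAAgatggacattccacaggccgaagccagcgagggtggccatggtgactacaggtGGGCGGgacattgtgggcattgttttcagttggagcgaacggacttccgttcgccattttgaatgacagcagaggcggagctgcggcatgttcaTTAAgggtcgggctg
Ggn: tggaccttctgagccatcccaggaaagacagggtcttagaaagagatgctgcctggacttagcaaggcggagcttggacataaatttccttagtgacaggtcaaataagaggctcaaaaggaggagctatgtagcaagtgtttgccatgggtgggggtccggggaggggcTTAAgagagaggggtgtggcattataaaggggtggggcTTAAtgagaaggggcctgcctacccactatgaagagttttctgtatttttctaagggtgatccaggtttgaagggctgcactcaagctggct
The Plscr3 sequence holds 2 GC boxes, those of Fzr1, Dohh and Psmd8 hold 1 each, and those of Fgf11 and Ggn hold none. Psmd8 has 3 TTAA, Ggn 2, Fgf11 1, and the other 3 have none in these 300 bases.

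Depth set what could be seen. The C57bl6J tables held 1545951 and 2186743 insertions, Syn1Cre 443158 to 1364948, GFAPCre 600443 to 1505413, SP1 at P28 108965 to 577609, SP1 at P10 86842 to 95331, BrokenHeart 42511 to 98197 and N2a 806653. The Frontflip_GFAPCreNeg tables held only 2341 to 9601. No sequencing pool held both SP1 and unfused Syn1Cre libraries, or both Syn1Cre and GFAPCre libraries, and for those comparisons group and pool cannot be told apart. Levels are given as insertions per 1000000 insertions of the table (IPM). Insertions at 14 neuronal marker loci summed to 3558 ± 123.4 IPM (SD, n = 6) in Syn1Cre, to 3394 ± 142 (SD, n = 4) in SP1 at P28, to 3070 ± 258 (SD, n = 3) in SP1 at P10 and to 1671 in N2a. Insertions at 10 astrocyte loci summed to 957 ± 532 IPM (SD, n = 6) in Syn1Cre, where 1 replicate reached 2026, and to 1768 ± 516 (SD, n = 4) in SP1 at P28 and 1033 ± 139 (SD, n = 3) in SP1 at P10. At 7 microglial loci the sums were 82.1 ± 5.46 in Syn1Cre, 154 ± 22.6 in SP1 at P28 and 226 ± 55.3 in SP1 at P10, where 3 of the loci had no insertion. The part of these marker differences in the results below was not tested, and only 2 marker genes, Slc17a7 and Aif1, lay in gene-dense windows.

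The first question was what share of all insertions fell in the gene-dense windows. In SP1 libraries at P28 the share was 2.72, 3.28, 3.07 and 2.60% of the insertions on chromosomes 1 to 19, a mean of 2.92% ± 0.312 (SD, n = 4). At P10 it was 3.17, 3.498 and 3.61%, a mean of 3.43% ± 0.229 (SD, n = 3). In unfused Syn1Cre libraries the share ran from 0.945 to 1.29% around a median of 1.10%, and the mean was 1.11% ± 0.128 (SD, n = 6). Every SP1 library lay above every unfused library of the cortex or forebrain groups, while the P10 and P28 shares overlapped. The mean share of SP1 at P28 was 2.64 times and that of SP1 at P10 was 3.09 times the share of unfused Syn1Cre. No p is given for the share, because it is a score over windows chosen with earlier results known. When each position counted only once, the means were 2.16% at P28, 2.59% at P10 and 0.972% in Syn1Cre.

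Without SP1 the gene-dense windows held slightly more insertions than their 0.794% of the windows in all but 1 library. The mean share was 0.943% ± 0.0423 in C57bl6J (SD, n = 2), 0.987% ± 0.0289 in GFAPCre (SD, n = 6), 0.964% ± 0.0326 in GFAPCreNeg (SD, n = 6) and 1.05% ± 0.0606 in Syn1CreNeg (SD, n = 6). It was 1.15% ± 0.0298 in Rbp4Cre_TRAP (SD, n = 4), 1.01% ± 0.0525 in Frontflip_GFAPCre (SD, n = 3) and 1.05% ± 0.0548 in BrokenHeart (SD, n = 3). In Frontflip_GFAPCreNeg 1 of 3 shallow tables lay below the share of windows, at 0.662%, and the mean was 0.897% ± 0.221 (SD, n = 3). Some of these groups overlapped and some did not: both C57bl6J libraries lay below all BrokenHeart, Syn1CreNeg and Rbp4Cre_TRAP libraries, and all GFAPCre and GFAPCreNeg libraries lay below the Rbp4Cre_TRAP ones. Within Syn1Cre, replicates 1 to 3 had 1.21% ± 0.0685 (SD, n = 3) and replicates 4 to 6 had 1.00% ± 0.0486 (SD, n = 3). These subsets were sequenced in separate pools, with 2.99 to 3.69 reads per insertion in the first and 10.7 to 20.7 in the second, and the SP1 libraries had 16.9 to 35.1. In the pooled N2a table the share was 1.68%, with a 95% Wilson interval of 1.66 to 1.71% that covers counting error only, 1.78 times the C57bl6J mean.

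**Figure D1:**
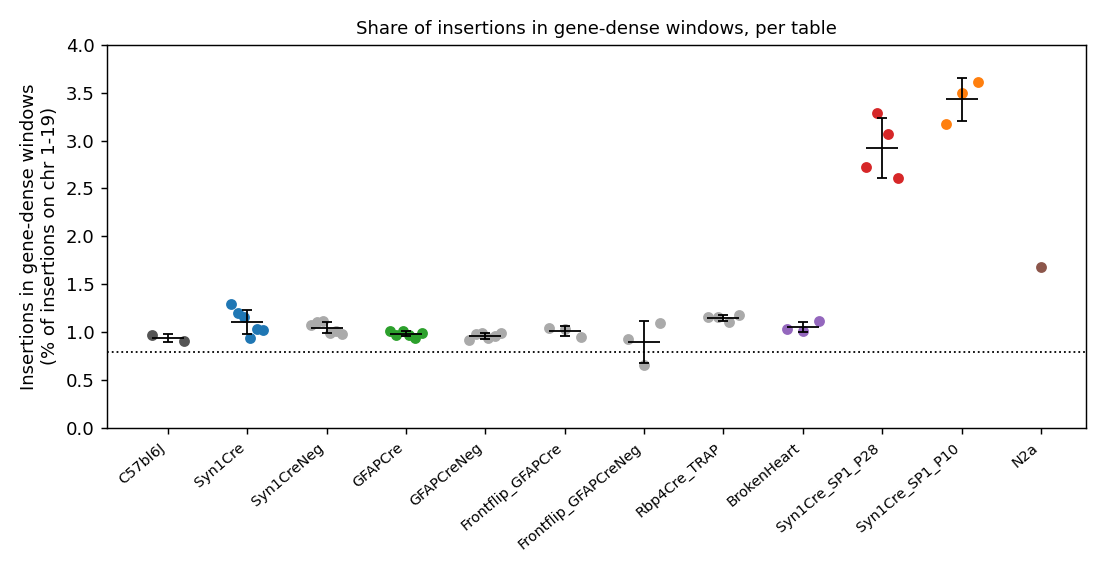
Share of the insertions on chromosomes 1 to 19 that fell in the 382 gene-dense windows (y axis, percent) in each of the 47 tables, by group (x axis), where each point is 1 table and bars are group means with SD. The dotted line marks the 0.794% of windows that are gene-dense. The 7 SP1 tables sit between 2.60 and 3.61%, above all others, and N2a follows at 1.68%.

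In SP1 libraries and in N2a the mean level per window was higher at 5 or more genes than at 1 gene, without a steady climb. In SP1 at P28 the mean was 7.96 IPM in windows without a gene, 26.3 in windows with 1 gene, 51.0 with 4 genes and 68.8 with 5. It was 87.3 with 6 genes, 66.1 with 7 and 85.3 with 8 or more, so the climb did not go on past 6. In Syn1Cre the mean was 11.1 IPM without a gene, 28.7 with 1 gene, 22.9 with 4, 28.4 with 5 and 28.7 with 8 or more. The step from no gene to 1 gene was the main one there, and C57bl6J and BrokenHeart had the same shape, with 27.3 and 26.1 at 1 gene against 25.2 and 26.1 at 8 or more. N2a had 23.4 at 1 gene, 36.6 at 5, 49.7 at 6, 67.1 at 7 and 46.6 at 8 or more. The 597 windows with 4 genes are those just outside the threshold and the 221 with 5 genes those just inside it, and the 5-gene mean was the higher in C57bl6J, Syn1Cre, GFAPCre, BrokenHeart, both SP1 groups and N2a. Windows differ in how many TTAA they hold, which was not computed. Over all tables the median number of distinct positions hit was 81 in gene-dense windows and 84 in all windows.

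**Figure D2:**
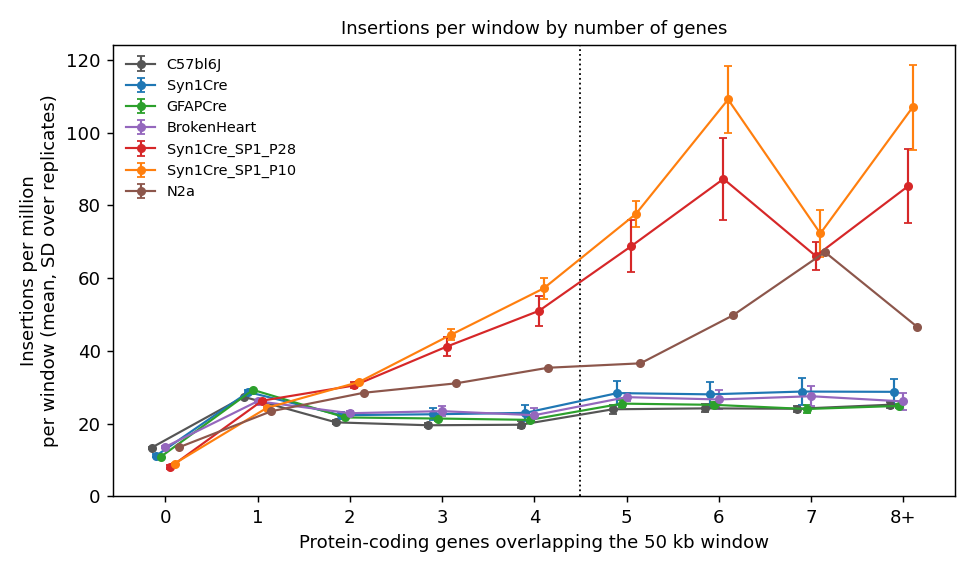
Mean IPM per 50 kb window (y axis) by the number of protein-coding genes the window overlaps (x axis, with 8 standing for 8 or more), for 7 groups, one line each, with SD over replicates except for N2a. The SP1 lines climb from 7.96 (P28) and 8.99 (P10) without a gene to 87.3 and 109.1 at 6 genes, while C57bl6J and Syn1Cre stay between 23.9 and 28.8 from 5 genes on.

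The question of the SP1 comparison at P28 was which windows gained insertions over unfused Syn1Cre. Of the 382 gene-dense windows, 290 passed the low-count filter, 212 were higher in SP1, 3 were lower and 75 were not called (edgeR quasi-likelihood test, adjusted p under 0.05 over all windows). Among all 20635 windows tested, 19.1% were called higher and 22% lower. A window can pass the filter through its SP1 counts alone, so the windows that passed through Syn1Cre alone are given too: 176 of those 245 were higher and 3 lower. The median log2 ratio was 1.27 over the 290 windows and -0.19 over all windows tested. The 4 SP1 libraries all lay above the 6 Syn1Cre libraries in 180 of the 382. The same count over all windows is not given, so how far 180 departs from it cannot be read here. At equal depth, with all tables thinned to the smallest, 93 gene-dense windows could be tested, of which 83 were higher. There too a window can pass the filter through its SP1 counts alone, and no share over all windows is given beside this count. The lower count, 3, became 5 without Syn1Cre replicate 5.

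At P10, against the same Syn1Cre libraries, 303 gene-dense windows passed the filter, 166 were higher, 4 lower and 133 not called. Over all 23744 windows tested, 11.1% were called higher and 11.8% lower. Among the 281 windows that passed through Syn1Cre alone, 154 were higher and 4 lower. The median log2 ratio was 1.30 over the 303 windows and -0.41 over all. At equal depth 85 of 92 tested windows were higher, again without a share over all windows beside it. The lower count fell to 2 without P10 replicate 1 and to 1 without P10 replicate 2 or 3. Both comparisons share the Syn1Cre libraries, so their values are given side by side and not counted as support for each other.

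**Figure D3:**
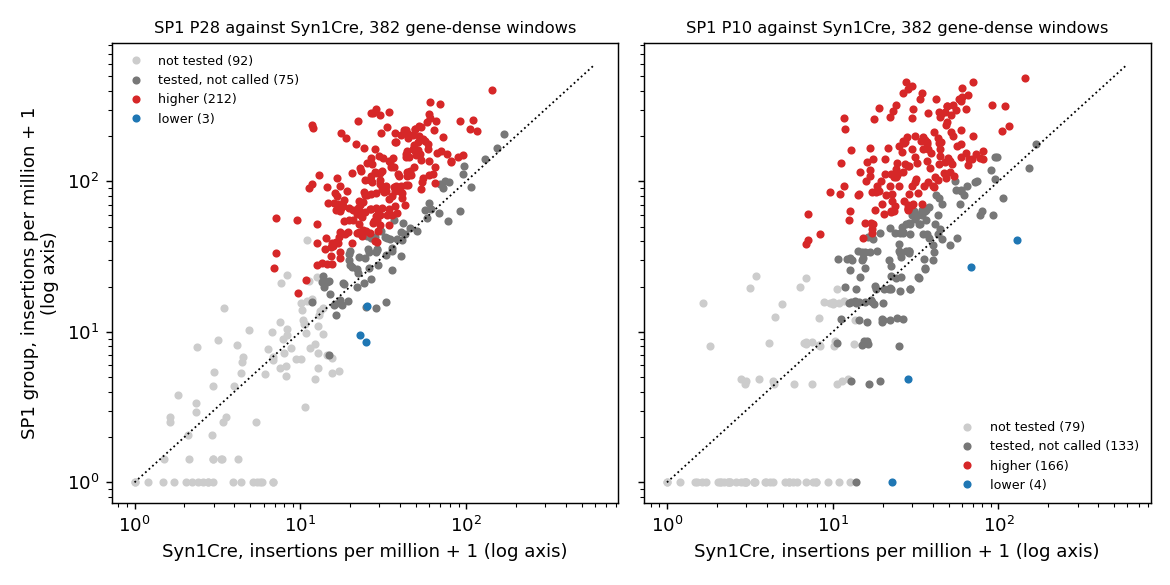
Mean IPM in each gene-dense window in Syn1Cre (x axis) and in SP1 libraries (y axis), both with 1 added and on log axes, at P28 and P10 in separate panels, with colour for windows called higher, lower, not called or not tested. At P28 212 windows lie above the diagonal as called and 3 below it, and at P10 166 and 4.

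The largest rise at P28 was at chr15:76650001-76700000, which overlaps Cyhr1, Kifc2 (a kinesin motor), Foxh1 (a transcription factor of Nodal signalling), Ppp1r16a and Gpt (alanine aminotransferase). The 4 P28 libraries had 211.3, 266.1, 291.6 and 176.6 IPM and the 3 P10 libraries 241.8, 289.6 and 262.2. The 6 Syn1Cre libraries ran from 5.60 to 15.8, with a median of 10.4. All SP1 libraries lay far above the highest Syn1Cre library. The log2 ratio was 4.45 ± 0.23 (SE) at P28 (edgeR, adjusted p = 5.74e-14) and 4.69 ± 0.29 at P10 (edgeR, adjusted p = 4.19e-15). At neither age would this window have passed the low-count filter through Syn1Cre alone. It was tested because of its SP1 counts, the group where it is high.

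The next was chr11:69800001-69850000, with Fgf11, Tmem102, Nlgn2 (neuroligin 2, an adhesion protein of inhibitory synapses), Tmem256, Plscr3 (a phospholipid scramblase) and 3 further genes. P28 libraries had 189.7, 257.0, 273.4 and 183.5 IPM, P10 libraries 149.7, 267.3 and 251.8, and Syn1Cre libraries 7.97 to 13.1 with a median of 11.1. The groups stood far apart, with log2 ratios of 4.29 ± 0.21 (SE) at P28 (edgeR, adjusted p = 2.10e-14) and 4.33 ± 0.30 at P10 (edgeR, adjusted p = 8.64e-14). This window too was tested only because of its SP1 counts, since Syn1Cre alone was too low for the filter at either age. The third at P28 was chr15:75900001-75950000, which overlaps Eef1d, a subunit of translation elongation factor 1, and Tigd5, Pycrl, Gfus and Zfp623. It had 181.1, 266.1, 206.5 and 180.1 IPM at P28 against 9.03 to 19.04 in Syn1Cre, a log2 ratio of 3.52 ± 0.20 (SE).

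At chr10:81350001-81400000 lie Fzr1, an activator of the anaphase-promoting complex, Dohh, which completes the hypusine of eIF5A, Hmg20b, Nfic (a nuclear factor I gene) and 4 more. P28 libraries had 276.0, 376.3, 255.1 and 226.8 IPM, P10 libraries 357.0, 389.9 and 409.1, and Syn1Cre libraries 16.4 to 38.4 with a median of 24.6. The log2 ratios were 3.49 ± 0.21 (SE) at P28 and 3.99 ± 0.24 at P10. At chr7:29150001-29200000, with Psmd8 (a proteasome subunit), Ggn (gametogenetin, a testis gene), Spred3, Rasgrp4, Fam98c and Catsperg1, the P28 libraries had 207.0, 376.3, 255.1 and 171.4 IPM and the Syn1Cre libraries 9.03 to 34.5. This is a log2 ratio of 3.45 ± 0.25 (SE). No SP1 library overlapped a Syn1Cre library in either window.

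At P10 the named windows also held chr7:28350001-28400000 and chr11:102250001-102300000. The first overlaps Rps16 (a ribosomal protein), Med29 (a Mediator subunit), Paf1 (an elongation factor subunit) and Zfp36 and had 276.4, 278.5 and 367.1 IPM at P10, against 13.3 to 24.6 in Syn1Cre. The second overlaps Atxn7l3, a subunit of the deubiquitinase module of SAGA, and had 426.1, 445.6 and 493.02 against 18.1 to 33.2. Their log2 ratios at P10 were 4.12 ± 0.26 and 4.08 ± 0.22 (SE), and at P28 they were 3.38 ± 0.21 and 3.36 ± 0.20.

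Few gene-dense windows fell with SP1, and the 2 that met the naming rule were called at P10 and not at P28. At chr11:79500001-79550000, with Nf1 (neurofibromin, a negative regulator of Ras), Omg (oligodendrocyte myelin glycoprotein) and the Evi2 genes inside an Nf1 intron, the P10 libraries had 11.5, 44.6 and 62.9 IPM, from 11 insertions in all. Syn1Cre libraries ran from 103.8 to 178.3, with a median of 121.6. The log2 ratio at P10 was -1.65 ± 0.39 (SE, edgeR adjusted p = 0.00199). When each position counted once it was -0.80 and no longer called. At P10 this window passed the low-count filter through its Syn1Cre counts, the group where it is high, and not through its P10 counts alone. A histone window, chr13:21700001-21750000, had 23.0, 33.4 and 21.0 IPM at P10 from 7 insertions, against 51.9 to 85.1 in Syn1Cre. Its log2 ratio was -1.39 ± 0.45 (SE, edgeR adjusted p = 0.0241), and the call was lost without any 1 of the 3 P10 replicates. At P28 neither was called: the Nf1 and Omg window had 140.5 ± 45.6 IPM against 128.5 ± 25.6 in Syn1Cre (edgeR, adjusted p = 0.719), and the histone window 60.3 ± 10.7 against 67.6 ± 11.8 (edgeR, adjusted p = 0.418).

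Outside the naming rule, and picked after their values were seen, 4 more windows were called lower. Each passed the low-count filter through its Syn1Cre counts, the group where it is high, and not through its SP1 counts alone. The window chr9:121750001-121800000 (Nktr, Zfp651, Klhl40, Hhatl and Ccdc13) had 8.48 ± 6.62 IPM at P28 against 21.9 ± 6.13 in Syn1Cre. At P10 it had no insertion in 271946, which is at least 1.99-fold lower when the group's floor is set at 3 counts. The window chr2:164550001-164600000, with Wfdc2, Eppin and other whey acidic protein genes, had 7.57 ± 6.45 IPM at P28 against 23.96 ± 5.57. The window chr18:37750001-37800000 of the protocadherin gamma cluster had 13.9 ± 5.12 at P28 against 24.3 ± 4.15. At P10 chr9:50600001-50650000 (Sdhd, Timm8b, Nkapd1, Pih1d2 and Dlat) had 1 insertion, or 3.84 ± 6.65 IPM, against 27.6 ± 6.45.

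Windows can be grouped by what their genes do, although an insertion in a window cannot be assigned to 1 of its genes. The lists were matched on gene symbols and so take in relatives such as Rps6kb2, a kinase, and Psmc3ip, which is no proteasome subunit. Windows with ribosomal protein genes numbered 18, of which 17 were tested at P28, 12 were higher and none lower, with a median log2 ratio of 1.34. The Rps15 and Ndufs7 window at chr10:80250001-80300000 had 92.0 ± 16.7 IPM at P28 (SD, n = 4) against 16.4 ± 5.14 in Syn1Cre (SD, n = 6). The Rps27a window at chr11:29500001-29550000 had 45.7 ± 16.9 against 49.7 ± 9.79, a log2 ratio of 0.10 with adjusted p = 0.767 (edgeR). At P10 all 18 were tested and 9 were higher. Windows with nuclear genes of oxidative phosphorylation, the mitochondrial pathway of ATP synthesis, numbered 16, of which 14 were higher at P28 and 10 at P10, where 1 was lower. The Atp5d window, chr10:80100001-80150000, which also holds the kinase gene Stk11, had 163.5 ± 28.9 IPM at P28 against 27.1 ± 7.47.

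Of the 8 windows with proteasome genes 6 were higher at P28 and 5 at P10, of 7 tested at each age. The Psme1 and Psme2 window, which holds 2 subunits of the PA28 activator (chr14:55550001-55600000), had 271.7, 229.4, 261.2 and 237.2 IPM at P28 and 56.99 to 76.7 in Syn1Cre. This is a log2 ratio of 1.96 ± 0.17 (SE, edgeR adjusted p = 7.88e-10). Of 12 windows with RNA polymerase II or Mediator genes 10 were tested and 10 were higher at P28, and 7 at P10. The window of Polr2a, the largest polymerase subunit, had 201.0 ± 34.8 IPM at P28 against 46.5 ± 8.07. All 4 windows with splicing genes were tested and 3 were higher at each age, Snrpa among them with 104.8 ± 17.9 against 15.7 ± 2.59. Of 14 windows with mitochondrial ribosome genes 11 were tested at P28, of which 7 were higher, and 12 were tested at P10, of which 6 were higher. Of all tested gene-dense windows 73.1% were higher at P28 and 54.8% at P10, and the counts of these lists are to be read against those shares. No gene-dense window overlapped an Sp or Klf factor, a metallothionein or a listed neuronal bHLH gene.

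Of 5 windows with genes of presynaptic release, all tested, 4 were higher at each age and 1 was not called, beside the same 73.1 and 54.8%. The window of Rab3a, a GTPase of synaptic vesicles, at chr8:70750001-70800000 had 237.2, 431.3, 315.9 and 221.6 IPM at P28, 380.0, 479.0 and 377.6 at P10 and 22.6 to 31.9 in Syn1Cre. Its log2 ratio was 3.38 ± 0.20 (SE) at P28 (edgeR, adjusted p = 7.35e-13) and 3.90 ± 0.22 at P10 (edgeR, adjusted p = 2.99e-16). The Bsn window (bassoon, an active zone scaffold) had 32.6 ± 4.63 IPM at P28 against 6.09 ± 2.14, and the Stx1a window (syntaxin 1A) 37.8 ± 11.1 against 11.7 ± 4.04. Neither would have passed the low-count filter at P28 through Syn1Cre alone. The Vamp2 window (synaptobrevin 2) was already high in Syn1Cre at 115.2 ± 22.4 and had 215.3 ± 41.0 at P28. The window of Slc17a7, the vesicular glutamate transporter VGLUT1, was higher at P28, with 93.5 ± 13.8 against 43.4 ± 4.17 (edgeR, adjusted p = 0.000119). At P10 it had 47.5 ± 14.8 (edgeR, adjusted p = 0.806). The windows of Junb and Npas4, activity-regulated transcription factors, were higher at both ages, with 252.0 ± 20.9 and 108.9 ± 10.4 IPM at P28 against 91.0 ± 16.7 and 45.8 ± 10.6. The Aif1 window, named for a microglial gene but also holding Prrc2a, Lst1, Ltb and Tnf, had 157.1 ± 26.7 at P28 against 48.0 ± 7.64.

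By gene family the rise was uneven. Of the 321 mixed windows 270 were tested at P28, of which 204 were higher and 1 lower. The Zfp window (Fiz1, Zfp524, Zfp865, Zfp784 and Zfp580, chr7:5000001-5050000) had 227.5 ± 59.5 IPM at P28 (SD, n = 4) and 349.5 ± 6.50 at P10 (SD, n = 3), against 32.5 ± 7.57 in Syn1Cre (SD, n = 6). Of the 8 histone windows 7 were tested at P28 and 2 were higher, with a median log2 ratio of -0.12. The histone window chr13:23550001-23600000, among the highest of all in Syn1Cre at 151.7 ± 36.7, had 165.9 ± 22.4 at P28 (edgeR, adjusted p = 0.564). Of 13 protocadherin windows 4 were tested, of which 1 was higher and 1 lower. Chemoreceptor, keratin and Hox windows had family means of 0 to 12.4 IPM in all groups except for Hox in N2a, at 80.6. Most were too low to be tested: against Syn1Cre at P28, 1 of 9 chemoreceptor, 0 of 4 keratin and 0 of 3 Hox windows passed the filter.

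Few gene-dense windows were called between the SP1 ages. Only 135 passed the filter for P28 against P10, of which 1 was higher, 3 lower and 131 not called, with 4.76% of all 2500 tested windows higher and 5.12% lower. The median log2 ratio was -0.36 over the 135 and -0.13 over all. The window of Ptbp1 (a splicing repressor), Plppr3, Prtn3, Elane, Cfd and Med16, chr10:79850001-79900000, had 90.6, 119.3, 164.0 and 114.3 IPM at P28 and 207.3, 378.7 and 293.7 at P10. All P10 values were the higher, with a log2 ratio of -1.29 ± 0.28 (SE, edgeR adjusted p = 0.0108). The window of Clic1 and Ddah2, chr17:35050001-35100000, had 129.4, 229.4, 176.2 and 128.1 at P28 and 287.9, 345.3 and 335.7 at P10, a log2 ratio of -1.04 ± 0.26 (SE, edgeR adjusted p = 0.0225). The window of Gps2, Eif5a and Neurl4, chr11:69900001-69950000, had 146.6, 128.5, 164.02 and 145.4 at P28 and 310.9, 233.9 and 241.3 at P10, a log2 ratio of -0.83 ± 0.25 (SE, edgeR adjusted p = 0.0382). The call of the first window was lost without P10 replicate 2 or 3. That of the second was lost without P28 replicate 1 or any 1 of the P10 replicates, and that of the third without any 1 replicate except P28 replicate 4. The Nf1 and Omg window, picked after its values were seen, was the one called higher at P28, with 140.5 ± 45.6 against 39.7 ± 26.1. It passed the filter only through P28, the group where it is high. These counts rest on few libraries: the 3 lower calls became 1 without P28 replicate 1 or P10 replicate 1, 0 without P10 replicate 2 or 3, and 12 without P28 replicate 4. The 1 higher call was lost without any 1 of the P10 replicates. Scaling moved the split over all windows too, from 119 higher and 128 lower to 257 and 139 with TMM factors.

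The position of insertions inside the windows was not used in choosing them. It was taken in the 159 gene-dense windows for which the RefSeq promoter table gave a start for every gene, a restriction set after the data were seen, with chromosome 18 left out. In these windows 17.4% of the length lay within 1 kb of a start. Of the insertions in them, 55.3 to 62.6% lay within 1 kb of a start in the 4 P28 libraries, with a mean of 60.2% ± 3.35 (SD, n = 4), and 63.4% ± 2.03 at P10 (SD, n = 3). In Syn1Cre the share ran from 37.95 to 45.1% with a mean of 39.9% ± 2.58 (SD, n = 6), and no SP1 library overlapped it. C57bl6J had 38.6% ± 0.891 (SD, n = 2), BrokenHeart 49.97% ± 6.56 (SD, n = 3) and N2a 45.5%. BrokenHeart overlapped the P28 libraries, since its replicate 3 had 57.5%. The shallow Frontflip_GFAPCreNeg tables ran from 33.3 to 66.7%. In windows with 1 to 4 genes, where 2.74% of the length lay this close, the share was 22.2% ± 3.18 at P28, 26.3% ± 1.28 at P10, 7.64% ± 0.664 in Syn1Cre and 11.4% ± 0.959 in BrokenHeart.

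Much of the SP1 excess near starts lay on the upstream side. The 500 bases before a start took 27.0% ± 2.40 of the gene-dense insertions at P28 (SD, n = 4) and 13.7% ± 1.08 in Syn1Cre (SD, n = 6), on 4.24% of the length. The 500 bases after a start took 10.9% ± 0.994 and 6.15% ± 0.547, on 4.88% of the length. From 500 to 1000 bases upstream the groups were close, with 13.9% ± 0.756 and 12.7% ± 1.08. In BrokenHeart the 500 bases before a start took 17.9% ± 2.84 and the 500 bases after it 13.7% ± 3.78 (SD, n = 3).

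**Figure D4:**
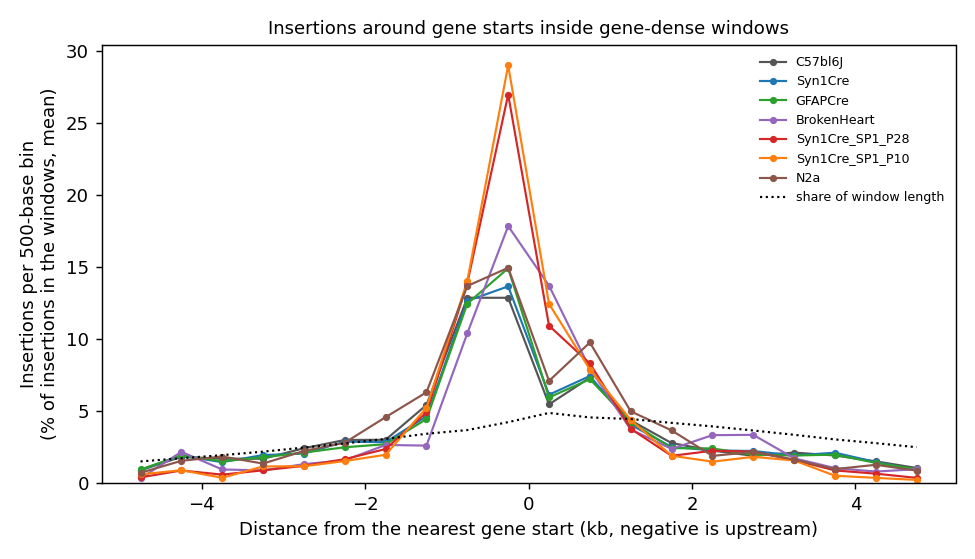
Share of the insertions in gene-dense windows (y axis, percent) by distance from the nearest gene start (x axis, kb, negative upstream, in bins of 500 bases), as means of 7 groups, beside the share of window length in each bin. SP1 at P28 reaches 27.0% in the bin just upstream of the start, against 13.7% in Syn1Cre and 4.24% of the length.

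The 6 promoters printed above had the following values. They were picked for the highest P28 levels near a start in their windows, so those levels are not support for a rise. Within 1 kb of the Fzr1 start lay 121 ± 49.8 IPM at P28 (SD, n = 4) and 216 ± 49.2 at P10 (SD, n = 3), against 4.47 ± 2.76 in Syn1Cre (SD, n = 6), while its neighbour Dohh had 22.05 ± 11.96, 26.0 ± 17.2 and 1.43 ± 0.723. Neither printed sequence holds a TTAA, and the position used most in this window by SP1 libraries, with 61 of 383 insertions, lies 453 bases upstream of the Fzr1 start. Plscr3 had 28.4 ± 6.77 IPM within 1 kb at P28 and Fgf11, in the same window and without a GC box in its sequence, 9.51 ± 7.26, against 0.741 ± 0.969 and 0 in Syn1Cre. Ggn, also without a GC box in its sequence, had 45.0 ± 21.6 at P28 and 59.8 ± 50.5 at P10, and no insertion in the 6 Syn1Cre libraries. Psmd8 had 93.0 ± 50.6 at P28, 117 ± 11.99 at P10 and 11.95 ± 7.64 in Syn1Cre.

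The Psmd8 sequence contains its window's most used position. The TTAA at base 286, which is 38 bases after the start, took 44 insertions at P28, 24 at P10 and 20 in Syn1Cre, and it was hit in 7 of 7 SP1 libraries. The other TTAA of the sequence, at bases 135 and 30, took 9 and 10 insertions at P28, 2 and 2 at P10 and 5 and 13 in Syn1Cre. Of the 303 SP1 insertions in this window, 68 lay at the first. The counts at each TTAA are summed over the libraries of a group and not scaled to depth. Since the groups differ in depth, these counts cannot be compared between groups. In gene-dense windows there were 1.65 to 2.00 insertions per distinct position at P28, 1.49 to 1.69 at P10 and 1.37 to 1.59 in Syn1Cre. C57bl6J had 1.63 and 1.72 and N2a 1.85. All P28 libraries lay above all Syn1Cre libraries, while P10 overlapped Syn1Cre and C57bl6J overlapped both SP1 groups. In the other windows the means were 1.32 ± 0.0597 at P28 (SD, n = 4), 1.21 ± 0.0327 at P10 (SD, n = 3) and 1.33 ± 0.0383 in Syn1Cre (SD, n = 6). The tables differ in depth, and its part in these values was not tested.

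GC boxes were about as common in promoters of the gene-dense windows as elsewhere. The motif GGGCGG on either strand was found in 850 of 1672 promoters, or 50.8%, against 47.02% of all 20063 promoters of the same length, and TTAA in 46.1% against 47.8%. In SP1 libraries the level near a start was higher with more GC boxes. At P28 it was 7.26 ± 0.926 IPM within 1 kb of a start without a GC box, 12.5 ± 1.75 with 1, 16.4 ± 2.58 with 2 and 17.9 ± 3.78 with 3 or more (SD, n = 4). In Syn1Cre it was 2.44 ± 0.317, 3.25 ± 0.344, 2.65 ± 0.253 and 2.65 ± 0.275 (SD, n = 6). At P10 it went from 8.95 ± 0.750 to 24.6 ± 2.39 (SD, n = 3), and in N2a from 4.24 without a GC box to 5.80 with 1 and 3.65 with 3 or more. The mean GC content of these promoters rose alongside, from 52.8% without a GC box to 67.5% with 3 or more, and its part in this order was not tested. Promoters of windows with 1 to 4 genes had the same order at P28, from 5.03 ± 0.616 to 19.2 ± 3.78, so the order is not particular to gene-dense windows.

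**Figure D5:**
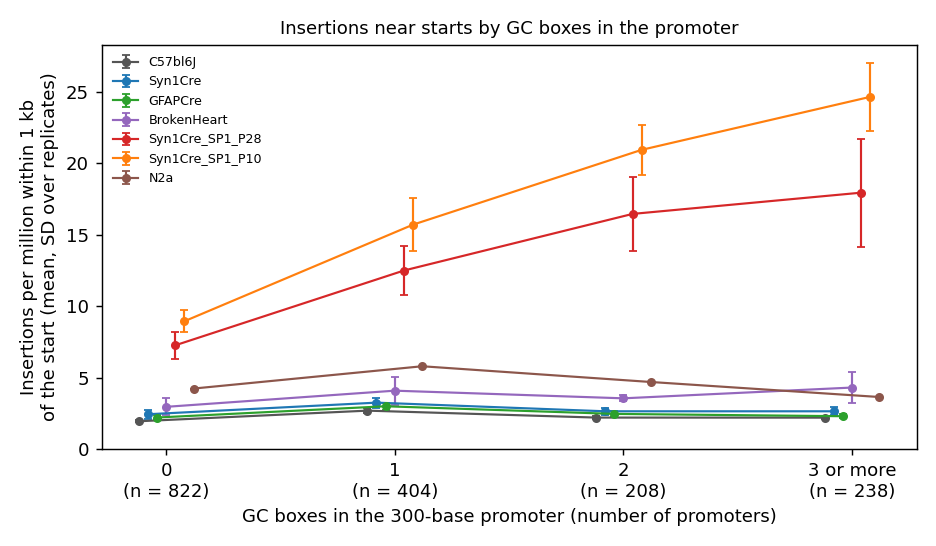
Mean IPM within 1 kb of a gene start in gene-dense windows (y axis) by the number of GC boxes (GGGCGG on either strand) in the 300-base promoter (x axis, 3 standing for 3 or more), as means of 7 groups with SD over replicates except for N2a. SP1 at P28 goes from 7.26 without a GC box to 17.9 with 3 or more, while Syn1Cre stays between 2.44 and 3.25.

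Syn1Cre and GFAPCre differed little in gene-dense windows. Of 274 tested, 3 were higher in Syn1Cre and 0 lower by edgeR, and 0 were lower by DESeq2, with 46 higher and 3 lower at an unadjusted p under 0.05. Of all 22468 windows tested, 1.63% were called higher and 1.64% lower at an adjusted p under 0.05. No share over all windows is given beside the unadjusted counts. The median log2 ratio was 0.17 over the gene-dense windows and 0.02 over all. The window of Camk2n2, an inhibitor of the kinase CaMKII, and Ece2, chr16:20600001-20650000, ran from 47.4 to 65.6 IPM in Syn1Cre with a median of 60.6, and from 22.8 to 47.1 with a median of 37.9 in GFAPCre. The ranges nearly met, and the log2 ratio was 0.71 ± 0.16 (SE, edgeR adjusted p = 0.0118), a call lost without GFAPCre replicate 1. The window of Tnpo2, a nuclear import receptor, and Man2b1, chr8:85050001-85100000, ran from 27.1 to 45.2 against 20.4 to 26.4, a log2 ratio of 0.66 ± 0.17 (SE, edgeR adjusted p = 0.0310), a call lost without Syn1Cre replicate 1, 3 or 6 or GFAPCre replicate 1, 2 or 4. The third, chr7:45200001-45250000 with Tead2 and Cd37, lay outside the naming rule and was picked after its values were seen, at 37.3 ± 7.48 against 23.6 ± 5.25. The count depended on the Syn1Cre subset: with replicates 1 to 3 only it was 46 higher and 2 lower, and with replicates 4 to 6 only it was 0 and 0. It was 13 without Syn1Cre replicate 5, 6 without replicate 4, 1 without replicate 1 or 3 or GFAPCre replicate 4, and 0 without GFAPCre replicate 1. DESeq2 called 1.

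BrokenHeart was shallow, and only 10 gene-dense windows passed the filter against C57bl6J. Of these 4 were higher and 2 lower, with 21.6% of all 1309 tested windows higher and 34.9% lower. Among the 4 windows that passed through C57bl6J alone, 0 were higher and 2 lower (edgeR), so the higher calls passed the filter only through BrokenHeart, where they are high. Likewise the 2 lower calls passed only through C57bl6J, where they are high. Readout, from DNA in one and from RNA in the other, and group cannot be told apart. The window of Psmb5, a catalytic proteasome subunit, and Acin1, chr14:54600001-54650000, had 154.4, 112.0 and 164.7 IPM in BrokenHeart, from 27 insertions, against 73.1 and 75.5 in C57bl6J. The log2 ratio was 0.87 ± 0.36 (SE, edgeR adjusted p = 0.0312), and the call was lost without any 1 of the 5 libraries. Windows picked after their values were seen were higher around Pygo2 and Shc1 (119 ± 33.5 against 47.9 ± 0.106), Csnk2b and Bag6 (96.0 ± 24.998 against 27.9 ± 4.49) and Tln1 (98.5 ± 51.0 against 19.4 ± 0.963). Of the lower windows, the histone window chr13:23550001-23600000 had 37.1 ± 35.4 against 143 ± 3.18. The higher count was 7 without BrokenHeart replicate 1, 11 without replicate 3 and 0 without either C57bl6J replicate. The lower count was 0 without C57bl6J replicate 1 and 1 without C57bl6J replicate 2 or BrokenHeart replicate 1. Over all windows the split of 283 higher and 457 lower became 350 and 324 with TMM factors.

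The N2a table, with no replicate and no test, had its own pattern. Past 2-fold of C57bl6J, with 1 IPM added to both, 106 gene-dense windows were higher and 39 lower, beside 19.2% of all windows higher and 43.8% lower. The median log2 ratio was 0.47 over the 382 and -0.61 over all windows. All 8 histone windows were past 2-fold higher, with a mean of 335 IPM against 69.9 ± 1.68 in C57bl6J (SD, n = 2), 40.4 ± 9.57 in BrokenHeart (SD, n = 3) and 72.8 ± 7.04 in Syn1Cre (SD, n = 6). The highest was chr13:21700001-21750000 with H2bc13, H2ac13, H3c10, H2bc14 and H4c11, at 585 IPM from 472 insertions, with a 95% Wilson interval of 535 to 640. The clustered histone genes are those expressed during DNA replication. Next came chr13:21750001-21800000 at 562, chr13:23550001-23600000 at 414 and chr3:96200001-96250000 at 400.4. After these came chr6:136800001-136850000 at 250.4, a mixed window that holds H4f16 and H2aj but is not among the 8 histone windows.

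Among the 3 Hox windows, the Hoxc window (Hoxc11 to Hoxc6, chr15:102950001-103000000) had 238 IPM in N2a and 1.10 ± 0.268 in C57bl6J (SD, n = 2). The Hoxa window had none in N2a and the Hoxd window 3.72, so this family's mean of 80.6 rests on the Hoxc window. In the other direction, the Nf1 and Omg window, the third highest in C57bl6J at 112 ± 7.77, had 7.44 in N2a. Of the 38 gene-dense windows with the most N2a insertions, 20 were among the 38 highest in C57bl6J. The Zfp window had 63.2 in N2a and 27.4 ± 1.30 in C57bl6J.

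Within each group the windows differed strongly. The highest 38 windows held 29.6% of the gene-dense insertions in Syn1Cre, 32.3% in SP1 at P28, 37.0% at P10 and 40.2% in N2a. The median gene-dense window had 23.1 IPM in Syn1Cre, 52.7 at P28, 53.1 at P10, 19.3 in C57bl6J, 21.4 in BrokenHeart and 28.5 in N2a. At P28 20 windows had no insertion in any library, at P10 42, and in N2a 14, against 2 in Syn1Cre and 2 in C57bl6J. The shallow groups without SP1 had 30 in BrokenHeart and 270 in Frontflip_GFAPCreNeg. Depth differs widely between these groups, and its part in the counts was not tested.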

How the data were processed

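The deposited insertion tables were made by the authors from sequencing reads and hold 1 line per insertion, with its position, strand and read count. Novoalign, Bowtie2 and mm10 are named in the submitters' processing notes, without versions or roles. The count analysed here is the number of lines per window, given per 1000000 lines of the table (IPM). BrokenHeart coordinates were shifted by 1 base, after which 97.6% of its 2140 promoter insertions lay at TTAA (C57bl6J: 100% of 21191).

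Gene bodies came from the RefSeq table of GRCm38.p6. In it, 105 protein-coding genes of chromosomes 1 to 19 lie wholly before position 3000000 and were left out, which removed 7 windows that would have made 389. A window counted as a family window when 50% or more of its genes share a symbol stem. The members and lists were chosen with earlier results of these data known.

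All windows of chromosomes 1 to 19 and X that passed edgeR's filterByExpr were fitted with edgeR 4.0.16 (quasi-likelihood, R 4.3.3), for the 2 groups compared, with library totals as scale, and p-values were adjusted over all windows (Benjamini-Hochberg, threshold 0.05). The scripts were tested on simulated data. Named windows were, per comparison, up to 5 highest and 5 lowest ratios among called windows whose replicates did not overlap and whose mean reached the median of tested gene-dense windows, leaving out those within 200 kb of another. By level, the 5 highest in C57bl6J and in N2a and the 3 with most genes were taken. Example windows of the gene lists were picked after their values were seen. Alternatives were TMM factors, DESeq2 1.42.0, no low-count filter, distinct positions, at least 2 reads, windows shifted by 25 kb, equal depth, the replicate block, leaving out replicates and subsets by sequencing pool. Starts were known for 82.3% of the genes used (1645 of 1998). Some windows that met these rules are not reported here.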

Additional observations from a re-analysis of the deposited data

Results flagged for a closer look

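Of 30 groups of replicate values examined for an outlying replicate, 2 stood out, and chance alone would mark about 1 in 20. In the Nf1 and Omg window (chr11:79500001-79550000), Syn1Cre replicate 5 was far above the other 5 replicates at 178 IPM. In the Eef1d window (chr15:75900001-75950000), the same replicate was far below the others at 9.03 IPM. It has the fewest insertions of the Syn1Cre tables, 443158, and the part of depth in either value was not tested.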

How the results depend on the processing

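No value changed sign among those recomputed. The SP1 counts of higher windows kept within 1.5 times of 212 (P28) and 166 (P10) except at equal depth, which gave 83 and 85 with fewer windows tested; leaving out 1 replicate gave 185 to 213 and 139 to 168. Lower windows at P28 (3) were 9 with no filter, 1 with distinct positions, 0 at equal depth, 6 with Syn1Cre replicates 1 to 3, 0 with 4 to 6, and 2 to 5 leaving out 1 replicate. At P10 (4) they were 1 with distinct positions, shifted windows or equal depth, 2 with Syn1Cre replicates 4 to 6, and 1 to 5 leaving out 1 replicate. For P28 against P10, the 1 higher window became 0 with distinct positions or shifted windows and 0 to 1 leaving out 1 replicate; the 3 lower became 7 with TMM, 1 with distinct positions, 9 with shifted windows, 1 with the P28 replicates that shared pools with P10, and 0 to 12 leaving out 1 replicate. For BrokenHeart, the 4 higher became 9 with no filter, 1 with at least 2 reads, 2 with shifted windows, 0 at equal depth and 0 to 11 leaving out 1 replicate; the 2 lower became 0 with distinct positions or equal depth and 0 to 3 leaving out 1 replicate. For Syn1Cre against GFAPCre, the 3 higher became 1 with DESeq2, 0 with distinct positions or equal depth, 46 with Syn1Cre replicates 1 to 3, 0 with 4 to 6, and 0 to 13 leaving out 1 replicate; the 0 lower became 2 with shifted windows or Syn1Cre replicates 1 to 3, and 0 to 2 leaving out 1 replicate. DESeq2 scaling moved the split over all windows to 118 higher and 34 lower for P28 against P10 and to 388 and 304 for BrokenHeart. For most of these settings no share over all windows is given beside the count. The causes were not tested.

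Replicate numbers did not pair the samples: same-numbered deviations correlated at -0.20 to 0.18, and 0 of 4, 1 of 3, 1 of 3, 0 of 2 and 1 of 6 samples matched their own number best. With the replicate block, P28 gave 200 higher and 1 lower, P10 152 and 4, P28 against P10 1 and 11, BrokenHeart 3 and 2, and Syn1Cre against GFAPCre 1 and 0.

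The share with distinct positions was 0.815% in C57bl6J, 0.972% in Syn1Cre, 0.886% in GFAPCre, 2.16% in SP1 at P28, 2.59% at P10 and 1.39% in N2a. Without family windows it was 0.802% in C57bl6J, 0.957% in Syn1Cre, 0.843% in GFAPCre, 0.919% in BrokenHeart and 1.28% in N2a. Shifted windows gave 0.860% in C57bl6J, 0.903% in GFAPCre and 0.952% in BrokenHeart, and at least 2 reads gave 0.998% in C57bl6J. Leaving out 1 replicate gave 1.07 to 1.14% in Syn1Cre, 0.981 to 0.996% in GFAPCre, 1.02 to 1.08% in BrokenHeart, 2.80 to 3.03% at P28 and 3.34 to 3.56% at P10. Of 163 values of named windows with 1 replicate left out, 136 kept their call and 27 lost it.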
